A study of Mus musculus with 6 samples.

Results

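In natural killer (NK) cells that lacked Rroid, 336 of 51775 ATAC-seq peaks, 0.649%, were at least 4 times as accessible as in wildtype cells. A peak was taken where the mean of the 3 Rroid-deficient libraries was at least 4 times the mean of the 3 wildtype libraries and every Rroid-deficient value lay above every wildtype value. The peaks were thus chosen by these values, and the accessibility of the 336 opened peaks is described here with no test. The opposite set, 427 peaks reduced to less than 0.4 of the wildtype mean with every Rroid-deficient value below every wildtype value, is used for comparison.

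ATAC-seq marks open chromatin by inserting sequencing adapters into accessible DNA with a transposase. NK cells are cytotoxic innate lymphocytes, and Rroid is a long noncoding RNA locus upstream of Id2. Id2 encodes a repressor that holds E proteins off their DNA sites, and E proteins drive genes of lymphoid progenitors, T cells and B cells. Repeats make up a large part of the mouse genome, and most copies of endogenous retroviruses are kept closed in somatic cells. The same sequence can then lie at many places, so a read from one copy cannot always be placed on the right one.

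Both genotypes were of the C57BL6 background, and NK cells were sorted from spleen as CD3- CD5- NK1.1+ NKp46+ cells, with 50000 cells used per genotype. No treatment was named. Sources used here give neither the age and number of the animals, nor the design of the Rroid deletion, nor whether each library is another animal. The p-values below therefore measure only the spread between these libraries, which may be technical. Values are the deposited normalized reads per peak, coordinates of peaks are mm9, and each peak carries the nearest gene by distance, which is not shown to be its target.

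The libraries are called wildtype 1 to 3 and Rroid-deficient 4 to 6 after the ends of their column names. They held 43187774, 47939665 and 39847736 reads in peaks in wildtype and 27572006, 41167610 and 30762426 in Rroid-deficient libraries. The lower quartile of all peaks was 80.1, 73.9 and 77.2 in wildtype and 92.8, 74.3 and 88.3 in Rroid-deficient libraries. Libraries 4 and 6 thus had the fewest reads and the highest lower quartiles. The part of depth in the results below was not tested. In 11 peaks nearest to Gm17746 at the Rroid locus on chromosome 12 (26000744 to 26079794), wildtype sums were 4035, 5468 and 4800. Rroid-deficient sums were 41.1, 40.9 and 50.8. These peaks were chosen for this loss from the same values, so the sums describe the libraries and are no independent check of their labels. A start site was counted as holding a peak where a peak with that gene as its nearest was centred within 1 kb. A start covered by a peak centred further off or assigned to another gene was thus not counted. Start sites of 11 of 12 NK identity genes held a peak, with summed values of 35635 to 39497 in wildtype and 28876 to 33644 in Rroid-deficient libraries. Start sites of 13 of 14 housekeeping genes were lower too, at 58787 to 66590 against 50118 to 57720, as were those of 3 of 15 erythroid and platelet genes, at 1345 to 1430 against 1102 to 1216, and those of 8 of 13 dendritic cell genes overlapped, at 12093 to 13032 against 11240 to 12174. T cell start sites summed to 5948 to 6517 against 6491 to 6928 with 11 of 23 genes holding a peak. Limma called 3 of these 11 peaks higher and 0 lower, and 1 was the opened Cd3g peak. Cd3d, Cd3e, Cd4 and Cd8a were among the genes without a peak. B cell start sites summed to 1234 to 1416 against 1566 to 1769 with 7 of 20 genes, of which 1 was called higher and 2 lower. Ms4a1, Cd79a and Pax5 were among those without a peak. Myeloid start sites summed to 3382 to 4975 against 4657 to 5406 with 8 of 20 genes, of which 1 was called higher and 1 lower. Lyz2, Csf1r, S100a8 and Mpo were among those without a peak. The part of other cells in the results below was not tested. Rroid-deficient library 5 stood apart from libraries 4 and 6 at a block of repeated genes on chromosome 5, and single wildtype libraries stood apart at a few peaks. Leaving out 1 wildtype library moved the ratio of means by more than 1.5 times at 15 of the 336 opened peaks. These were 6 for library 1, 6 for library 2 and 3 for library 3. Leaving out 1 Rroid-deficient library did so at 0. A library below the other 2 can shift a mean of 3 by less than 1.5 times. The limit therefore could not mark a low library, such as library 5 in the chromosome 5 block. Of the 6 for library 2, 4 lay on chromosome 1, and library 2 was the highest wildtype library at each. The peaks near Ren2, Syt2 and Gpr25 lay close along the chromosome, starting at 135244239, 136575852 and 138145797. The peak near Col19a1, at 24619166, lay far from them. Near Zfp281, at 138497107, library 2 was the lowest wildtype library.

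Promoter sequences are shown for opened peaks that lay on an annotated start site, since these place the opening at a known gene end. Of the 9 such peaks, 6 had a gene matched in RefSeq promoter windows (250 bases before to 50 after the start, build GRCm38.p6), and each of the 6 windows lay inside its peak by distance from the start site. Those of the 3 matched promoters with the highest Rroid-deficient values are printed, 5′ to 3′ along the gene. Capitals mark matches on either strand to CAGCTG and CAGGTG, E-box letters that E proteins bind, to TGTGGT, letters of RUNX sites, and to CTTTGA, letters of TCF and LEF sites. None of the 4 motifs overlapped another in these windows. CAGGTG reads CACCTG and CTTTGA reads TCAAAG on the other strand.
Tctex1d1 promoter, chr4:102978453-102978752, GRCm38.p6, plus strand: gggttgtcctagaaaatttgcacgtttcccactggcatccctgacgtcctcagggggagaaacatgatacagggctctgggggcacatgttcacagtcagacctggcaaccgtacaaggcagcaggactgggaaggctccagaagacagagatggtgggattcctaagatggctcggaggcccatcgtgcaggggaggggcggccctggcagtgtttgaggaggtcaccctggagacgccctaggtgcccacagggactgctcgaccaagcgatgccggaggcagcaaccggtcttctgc
Cd3g promoter, chr9:44980382-44980681, GRCm38.p6, minus strand: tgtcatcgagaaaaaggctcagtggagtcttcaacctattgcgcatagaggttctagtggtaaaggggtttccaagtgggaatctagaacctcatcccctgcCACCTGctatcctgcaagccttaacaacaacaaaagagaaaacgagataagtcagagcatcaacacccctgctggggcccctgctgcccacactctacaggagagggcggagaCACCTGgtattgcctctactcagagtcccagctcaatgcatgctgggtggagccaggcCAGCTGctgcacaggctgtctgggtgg
Frem2 promoter, chr3:53657306-53657605, GRCm38.p6, minus strand: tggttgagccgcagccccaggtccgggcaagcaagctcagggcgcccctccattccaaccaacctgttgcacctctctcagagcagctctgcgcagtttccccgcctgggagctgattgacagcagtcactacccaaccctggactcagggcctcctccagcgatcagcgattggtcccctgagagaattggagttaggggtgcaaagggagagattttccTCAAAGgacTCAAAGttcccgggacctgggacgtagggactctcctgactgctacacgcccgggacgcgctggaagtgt

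The Cd3g window held 1 CAGCTG and 2 CAGGTG matches, and the Frem2 window held 2 CTTTGA matches. The windows of Tctex1d1, Gm9758, Gm9899 and Lrrc10b held none of the 4 motifs. Over all 27025 promoter windows, 16.1% held CAGCTG, 20% CAGGTG, 16.9% TGTGGT and 16.2% CTTTGA. A match is a description of the letters and not a site of binding.

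A second set of sequences shows a stretch shared by gene copies in and beside the chromosome 5 block. Of the 4 windows printed, only that of Gm9758 lay in an opened peak. By distance from the peaks, the starts of Speer4e and Gm17019 fell between peaks and that of Speer4c beyond the end of the block. The block is named by its Speer genes, a rodent family of many near-identical copies expressed in testis. The RefSeq promoter windows of Speer4e and Speer4c, set end to end, were identical at 296 of 300 bases, and those of Speer4e and Gm17019 at 292 of 300. The window of Gm9758 lay shifted by 9 bases against theirs and was less alike, equal to that of Speer4c at 215 of 291 overlapping bases, 73.9%, and to that of Speer4e at 214, 73.5%. Set end to end with no shift, the windows of Gm10354 and Speer4d equalled these 4 at 24.7% to 28.3% of bases; other shifts are not given for them. Printed is the stretch of 100 bases with the most differences between Speer4e, Speer4c and Gm17019. Among equal stretches, that with the fewest differences over all 4 windows was taken. In it the 4 windows differed at 5 positions, in capitals, out of 80 over the whole overlap.
Gm9758, bases 131 to 230 of chr5:14914840-14915139, GRCm38.p6, minus strand: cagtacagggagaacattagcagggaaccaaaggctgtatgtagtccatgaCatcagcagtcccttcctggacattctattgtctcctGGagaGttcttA
Speer4e, bases 140 to 239 of chr5:14938426-14938725, GRCm38.p6, minus strand: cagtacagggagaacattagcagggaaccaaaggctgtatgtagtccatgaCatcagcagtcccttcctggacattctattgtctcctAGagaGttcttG
Speer4c, bases 140 to 239 of chr5:15714222-15714521, GRCm38.p6, minus strand: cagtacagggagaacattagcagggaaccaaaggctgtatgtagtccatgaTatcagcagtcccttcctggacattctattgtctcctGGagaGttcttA
Gm17019, bases 140 to 239 of chr5:15032958-15033257, GRCm38.p6, minus strand: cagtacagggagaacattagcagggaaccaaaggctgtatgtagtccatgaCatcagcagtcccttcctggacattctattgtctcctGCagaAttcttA

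Reads from such shared stretches could have been split between copies by alignment. The sequences of the other peaks in the block were not read, and the part of such splitting in their values was not tested. The value of any single peak in the block is thus uncertain.

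The opened peaks were faint in wildtype cells and of ordinary height in Rroid-deficient cells. Their median value was 38.7, 30.7 and 32.7 in wildtype libraries 1, 2 and 3, where the median of all peaks was 194, 188 and 189. In Rroid-deficient libraries 4, 5 and 6 it was 206, 171 and 182, beside 200, 188 and 195 for all peaks. By wildtype level, 206 of the 336 lay in the lowest decile of all peaks and 0 in deciles 8 to 10, while by Rroid-deficient level 3 lay in the lowest decile and 62 in decile 6. The ratio of means was 4 to 5 at 162 opened peaks, 5 to 6 at 76, 6 to 8 at 63, 8 to 10 at 16, 10 to 20 at 13 and above 20 at 6, with a median of 5.03 and a highest value of 44.4. All 3 Rroid-deficient values lay above all 3 wildtype values at 10373 peaks in all, 20% of those measured. The wildtype values rest on few reads, with a median of 43.5, 36.5 and 33.5 reads in the 3 wildtype libraries and fewer than 10 reads at 17, 16 and 24 opened peaks, against 0 in each Rroid-deficient library.

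**Figure D1:**
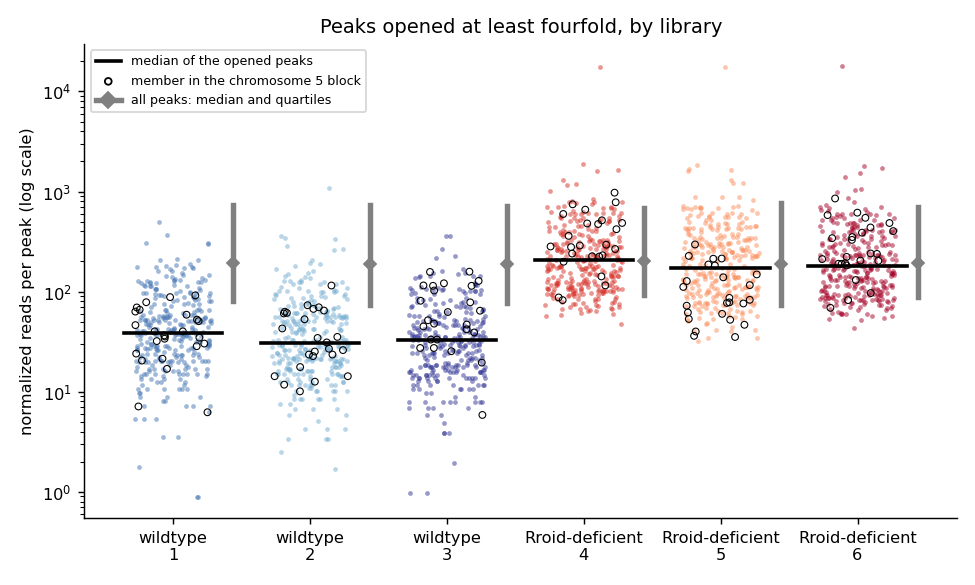
Normalized reads per peak (log scale) of the 336 opened peaks in each library, 1 point per peak, with open circles for the 25 in the chromosome 5 block, a bar for the median and a grey diamond with quartiles for all 51775 peaks. The wildtype medians of 30.7 to 38.7 lie far below the medians of all peaks, and the Rroid-deficient medians of 171 to 206 lie close to them.

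In bulk libraries, more cells with an open site and a wider opening in each cell cannot be told apart.

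The smallest ratios lay near P2ry2, a nucleotide receptor gene, Hvcn1, a proton channel gene, and Tmem38a, at 4.005, 4.006 and 4.02. Just outside the limit were peaks near Als2cl, Tnrc6b and Rnf32 at 3.998, 3.997 and 3.996. No peak reached the ratio of 4 with overlapping groups, so the second condition removed 0 peaks.

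Peaks were also chosen on 5 libraries and read in the sixth. Only the sixth library's value is new in such a reading, since the mean it is set against had a part in the choice, so the shares are a description. Of the peaks chosen without Rroid-deficient library 4, 90.8% of 306 were at least 4 times the wildtype mean in that library, as were 69.2% of 364 in library 5 and 73.0% of 367 in library 6. Outside the chromosome 5 block the share in library 5 was 74.9%. With a wildtype library left out, the Rroid-deficient mean was at least 4 times that library's value at 45.1% of 475 peaks for library 1, 77.9% of 335 for library 2 and 77.5% of 307 for library 3. At least 2 times was reached by 93.3% to 100% of the peaks in each of the 6 readings.

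Most opened peaks lay away from start sites. HOMER's annotation put 170 between genes, 50.6% against 35.9% of all peaks and 45.4% of the reduced peaks, and 142 in introns, 42.3% against 41.7% of all and 49.2% of reduced peaks. Only 9 were promoter peaks, 2.68% against 12.5% of all and 1.41% of reduced peaks. The other 15 lay in exons (7), 3′ UTRs (5), transcription end sites (2) and a 5′ UTR (1). The median distance to a start site was 20.7 kb for opened, 14.4 kb for all and 37.4 kb for reduced peaks, and 53 opened peaks lay more than 100 kb away. Opened peaks were narrower, with a median width of 778 bp against 964 bp. They were nearest to 277 genes, of which 239 had 1 opened peak, and 41 were nearest to a noncoding RNA gene, 12.2% against 10.3% of all peaks. The X chromosome held 1, chromosome 5 held 49 and chromosome 11 held 35. The rule chose peaks faint in wildtype, and the shares, distances and widths above were not matched for level.

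At the Cd3g promoter, the start of the gene for the gamma chain of the T cell receptor's CD3 complex, values were 55.2, 55.4 and 65.4 in wildtype and 314, 369 and 375 in Rroid-deficient libraries. The ratio was 6.01. The cells had been sorted as CD3-negative. No peak was counted at the start sites of Cd3d and Cd3e, but each peak was assigned to its nearest gene only. The Cd3g peak ran from -1239.5 to 319.5 bases around the Cd3g start, and whether it covers the start of a neighbouring gene was not tested. At the promoter of Cxcr5, the receptor that guides lymphocytes to follicles, values were 57.9, 42 and 39.1 against 257, 294 and 232. The promoter of Frem2, an extracellular matrix gene, went from 55.2, 57.1 and 30.3 to 326, 303 and 293. That of Tctex1d1 went from 81.9, 68.9 and 59.6 to 513, 419 and 445. The gap between genotypes at these 4 promoters was required by the rule, and within a genotype no library stood out. The other promoters were the noncoding 4933416M07Rik, with a ratio of 5.02, the noncoding Gm9899 with 4.70, Lrrc10b with 4.67, and Speer4cos and Gm9758 in the chromosome 5 block with 5.83 and 6.21.

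The densest group lay in 30 adjacent peaks of chromosome 5 (14914388 to 15211661), a block of 297 kb of Speer genes and pseudogenes, in which 25 peaks were opened at least 4 times. The other 5 had ratios of 3.66 to 3.87. Summed over the 30 peaks, wildtype libraries 1, 2 and 3 held 1209, 1133 and 1959, and Rroid-deficient libraries 4, 5 and 6 held 10319, 3115 and 8450. Libraries 4 and 6 were 7.20 and 5.89 times the wildtype mean, and library 5 only 2.17 times. Library 5 was the lowest of the 3 Rroid-deficient libraries at 29 of the 30 peaks. The value of library 5 over the mean of libraries 4 and 6 had a median of 0.325 in the block, against 1.0 at the 311 opened peaks outside it. The Rroid-deficient libraries thus differed from each other across the whole block, and library 5 lay nearer to wildtype there.

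**Figure D2:**
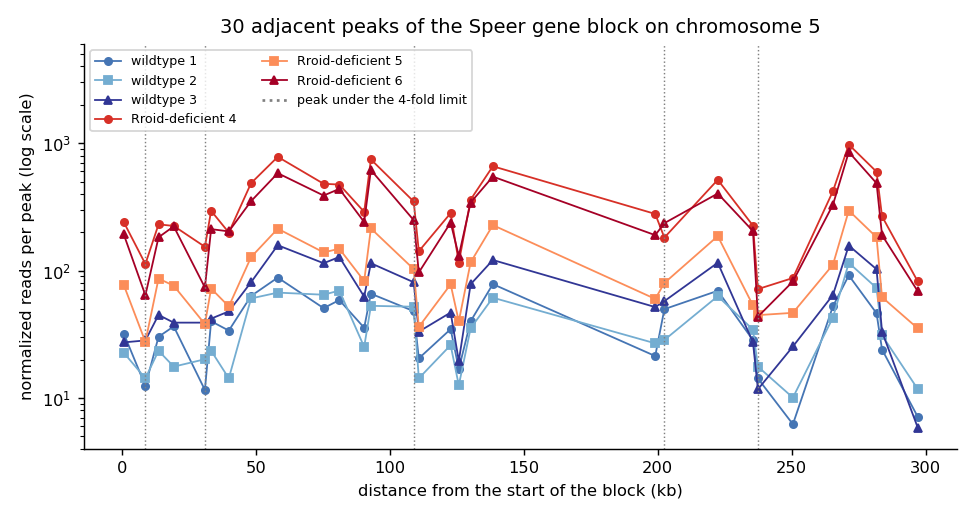
Normalized reads (log scale) at the 30 adjacent peaks of the chromosome 5 block by distance from its start, 1 line per library; dotted lines mark the 5 peaks under the 4-fold limit. The lines of Rroid-deficient libraries 4 and 6 run together at the top, and library 5 runs between them and the wildtype libraries, as its sum of 3115 against 10319 and 8450 shows.

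Of 8 peaks nearest to Speer genes outside the block, library 5 was below 0.5 of the mean of libraries 4 and 6 at 2, and at 0.505 to 1.01 of it at the other 6. The opened peak 7.7 kb from Speer4f1, in a LINE element of the Lx2A1 kind on chromosome 5 (16973473 to 16974927), held 28.5, 17.6 and 35.2 in wildtype and 225, 56.2 and 167 in Rroid-deficient libraries 4, 5 and 6. A peak nearest to Speer6-ps1 on chromosome 13, not among the opened ones, held 154, 60.9 and 117 in libraries 4, 5 and 6 against 46.3, 48.7 and 67.4 in wildtype. Library 5 lay within the wildtype range there. At the peak nearest to Speer5-ps1 on chromosome 10 libraries 4, 5 and 6 held 86.2, 73.3 and 95.5, against 65.9, 50.4 and 66.4, with no such gap. Of the 27 opened peaks at which library 5 was below 0.5 of the mean of libraries 4 and 6, 24 lay in the block. The other 3 were those of Speer4f1, Brinp3 and Il6st, found after their values were seen. The peaks that flank the block, nearest to Pclo and to Hgf, lay 399 and 604 kb from it. Their ratios were 1.80 (limma, adjusted p = 0.22) and 1.15 (limma, adjusted p = 0.66). Library 5 was at 0.337 of the mean of libraries 4 and 6 at the Pclo peak and at 0.786 at the Hgf peak. At the Pclo peak library 5 held 23.8, below the wildtype values of 31.2, 29.4 and 31.3. The low value of library 5 was thus also seen at Pclo, outside the block. Peaks of Speer1 and Speer3 had ratios of 0.88 to 1.11. Without libraries 4 and 6 the rule takes 315 peaks, 269 of them shared with the 336.

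The highest opened peak stood apart from all others. It lay between genes on chromosome 1 (24619166 to 24620433), 25.5 kb from Col19a1, a collagen gene. Wildtype libraries 1, 2 and 3 held 42.7, 1088 and 140 there, and Rroid-deficient libraries 4, 5 and 6 held 17359, 17681 and 18146. The Rroid-deficient values lay within a few percent of each other, while wildtype library 2 was far above the other two. The ratio was 41.9 and rose to 194 without wildtype library 2. Of the 5 other peaks nearest to Col19a1, with ratios of 0.26 to 0.73, limma called 4 lower and 0 higher. How multiply aligned and mitochondrial reads were treated is not given in the sources used here, and their part in this value was not tested. The peak 2.4 kb from Ren2, a renin gene, held 52.5, 266 and 63.5 against 548, 613 and 586, and its ratio of 4.57 became 10.0 without wildtype library 2.

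Repeats made up a larger share of the opened peaks than of all peaks. An annotated repeat was named for 95 of 336, 28.3%, against 16.5% of all peaks and 24.4% of reduced peaks; outside the chromosome 5 block it was 26.4%. LTR elements, the remains of retroviruses, made up 13.1% against 5.21% of all and 10.5% of reduced peaks. LINE elements made up 5.95% against 2.62% and 5.39%, and 3.86% outside the block. SINE elements made up 6.25% against 5.61% and 4.92%. Faint peaks were chosen by the rule, and the shares were not matched for level.

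One family had a far larger share. RLTR4 elements are endogenous retroviruses related to murine leukaemia virus, with long terminal repeats (LTRs) that carry the promoter on each side of an internal part. Of 18 peaks in RLTR4 elements, 8 were opened at least 4 times, 4 of 8 in LTRs and 4 of 10 in internal parts. Of the 203 peaks in other elements of the same class, ERV1, 6 were opened. Over all peaks the share was 0.649%, as given above. The 18 elements are copies of related sequence, so they are not independent, and reads could have been placed on the wrong copy.

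The RLTR4 peaks with the largest ratios were almost empty in wildtype. The one 10.0 kb from Scpep1os, on chromosome 11 (88756930 to 88757623), held 1.78, 1.68 and 0.977 in wildtype, which stand for 2, 2 and 1 reads, and 75.6, 47.6 and 73.7 in Rroid-deficient libraries. Its ratio was 44.4, and the ratio from pooled reads was 42.6 with an exact (Clopper-Pearson) 95% interval of 17.9 to 133 that covers counting error only. The LTR 9.0 kb from Zfp791, a zinc finger gene, held 7.12, 10.1 and 5.86 against 288, 327 and 181, a ratio of 34.5 (interval of the pooled ratio 23.5 to 53.5). In an intron of Plcd3, a phospholipase gene, an LTR held 3.56, 3.36 and 8.79 against 183, 153 and 131, a ratio of 29.7 that became 45.0 without wildtype library 3. In all 3 elements every Rroid-deficient value was many times the highest wildtype value, at peaks that the rule chose for such a gap.

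A second LTR in the Plcd3 intron went from 10.7, 10.9 and 7.81 to 126, 140 and 117. The internal element near 1700024P04Rik held 0.890, 4.20 and 0.977 against 47.7, 34.3 and 43.5, a ratio of 20.7 with a pooled ratio of 19.6 and an interval of 9.18 to 49.8; the ratio became 44.8 without wildtype library 2. The LTR near Mir684-1 went from 7.12, 5.88 and 3.91 to 92.8, 97.1 and 104. The remaining opened copies, near Ykt6 and Slc19a2, were not empty in wildtype and had ratios of 5.14 and 4.11. Of the 10 RLTR4 peaks outside the rule, 3 rose by limma, near Ykt6, Pik3c3 and Cep85, with log2 fold changes of 1.75, 1.49 and 0.47 (adjusted p = 6.2e-09, 1.8e-06 and 0.011); over all peaks limma called 13.8% higher and 12.1% lower. None of the 10 fell by limma at the adjusted limit, and the other 7 passed in neither direction, with ratios of 0.86 to 1.13. The family was therefore split, with copies that opened strongly beside copies whose ratios were near 1.

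**Figure D3:**
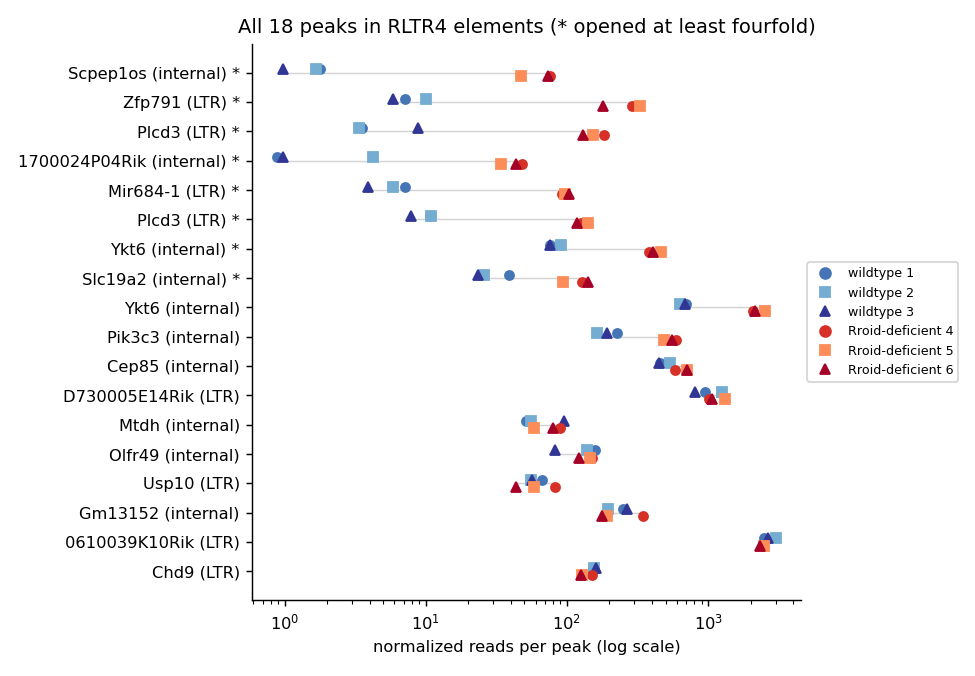
Normalized reads per peak (log scale) at all 18 peaks in RLTR4 elements, named by nearest gene and element part, with 1 marker per library (blue wildtype, red Rroid-deficient) and a star for the 8 opened peaks. The genotypes are apart at the starred peaks, which the rule required, with ratios of 4.11 to 44.4. They are mixed at the lowest 7, with ratios of 0.86 to 1.13.

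Around the RLTR4 copies the neighbouring peaks differed by site. At Ykt6, a SNARE gene, the promoter had values of 1464, 1512 and 1334 in wildtype and 1390, 1698 and 1405 in Rroid-deficient libraries (log2 fold change 0.06, limma adjusted p = 0.73). In Plcd3, another opened peak without a named repeat lay before the first LTR, with 44.5, 53.8 and 33.2 against 293, 375 and 300. A further peak in that intron rose from 284 ± 40.8 to 1026 ± 102 (SD, n = 3 each; log2 fold change 1.85, limma adjusted p = 4.5e-08). At Zfp791 a 5′ UTR peak was opened too, from 25.8, 30.2 and 15.6 to 105, 110 and 85.8.

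Other repeat kinds with 2 opened peaks and few peaks in all were RLTR24 (2 of 5, near Cblb and Syt6), Lx2A1 (2 of 6, both near Speer genes) and L1_Mus4 (2 of 9, both in the chromosome 5 block). At the RLTR24 copy 341 kb from Cblb, a ubiquitin ligase gene that restrains lymphocyte activation, values were 128, 103 and 123 against 541, 427 and 485. The common families had few: 18 of 1660 MaLR peaks, 18 of 1155 L1 peaks and 3 of 1447 B2 peaks. The highest opened peaks in repeats were the B2 element in an intron near Cenpv, with 308, 263 and 215 against 1622, 1661 and 1801, and the L1MB7 element near Spats1, with 143, 129 and 117 against 1016, 1222 and 990.

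Outside repeats, the highest opened peaks lay in or near genes of varied roles. At Tmevpg1, a noncoding RNA gene beside the interferon gamma gene, a peak 0.56 kb past the start held 307, 361 and 358 in wildtype and 1871, 1852 and 1718 in Rroid-deficient libraries, a ratio of 5.30. At Bmp7, a TGF-beta family ligand gene, values were 299, 334 and 356 against 1634, 1621 and 1406. Near Foxo1, a forkhead factor of resting lymphocytes, a peak 211 kb downstream held 213, 195 and 142 against 839, 881 and 869. In these 3 peaks the lowest Rroid-deficient value was at least 3 times the highest wildtype value. Peaks of Crybb3, 2610528J11Rik and Srrd had ratios of 4.94, 4.53 and 4.64.

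Among opened peaks at or above the median Rroid-deficient level of 181, the largest ratios after Col19a1 and Zfp791 were near Serpine2, a protease inhibitor gene, at 14.8, Tln2, the gene of talin 2, at 13.7, Igsf23 at 12.7 and Xrcc6, which encodes a DNA end-binding protein, at 12.3. The Serpine2 peak lay 168 kb from the gene and held 24.9, 21.0 and 14.7 against 318, 302 and 279. The Xrcc6 peak held 53.4, 24.4 and 13.7 against 375, 419 and 332, and its ratio was 19.7 without wildtype library 1. Pomgnt2, Mir3971, Aggf1 and Ift80 followed with 12.2, 10.5, 9.77 and 9.57.

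The gene lists covered NK, lymphoid and progenitor genes as well as markers of other cells and housekeeping genes. Of the 1751 peaks nearest to their 274 genes, 23 at 17 genes were opened. The list of the E-protein, progenitor and memory programme held 8 of its 258 peaks, 3.1%, and the list of innate lymphoid cell 1 (ILC1) and residency genes 6 of 109, 5.50%, of which 5 lay at Itgb3 and 1 at Tnfrsf9. Myeloid markers held 2 of 37 (Cd300a and Fcgr1), 5.41%, and T cell markers 2 of 94, 2.13%. NK and lymphoid transcription factors held 2 of 520 (Irf4 and Runx2), 0.385%. Cytokine receptor and signalling genes held 2 of 272 (Il6st and Pim1), 0.735%, and the chemokine receptor list 1 of 140, 0.714%. ILC2 and ILC3 genes held 1 of 67, 1.49%, near Il17a. NK receptor genes held 1 of 163, 0.613%, and NK identity genes 1 of 79, 1.27%, the last 2 being the same peak near Ncr1. No peak of the 182 at mature NK effector genes was opened, nor any at B cell (29), dendritic cell (73), erythroid and platelet (18) or housekeeping (59) genes. Of the peaks that were not opened 4 times, limma called 98 of 250 higher and 25 lower on the progenitor list, and 8 of 182 higher and 73 lower at mature NK effector genes. On the transcription factor list 78 of 518 were higher and 120 lower, at NK receptor genes 11 of 162 and 62, and at NK identity genes 5 of 78 and 35. At cytokine receptor and signalling genes 55 of 270 were higher and 32 lower, on the chemokine receptor list 38 of 139 and 25, at T cell markers 22 of 92 and 6, and at ILC1 genes 15 of 103 and 15. The other 6 lists (B cell, dendritic cell, myeloid, erythroid, ILC2 and ILC3, housekeeping) had 1 to 9 higher and 4 to 14 lower. Over all peaks limma called 13.8% higher and 12.1% lower. The shares of opened peaks stand beside 0.649% of all peaks, and the lists were chosen with results of these data known.

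Id3, an inhibitor of E proteins like Id2, had 3 opened peaks 27 to 37 kb upstream. The first (135662542 to 135663291 on chromosome 4) held 55.2, 31.9 and 16.6 in wildtype and 207, 261 and 208 in Rroid-deficient libraries. The second held 25.8, 17.6 and 15.6 against 164, 170 and 164, and the nearest to the gene 24.9, 20.2 and 12.7 against 162, 134 and 122. The ratios were 6.51, 8.45 and 7.23, with wildtype library 1 the highest wildtype value each time. With 2 more peaks assigned to Rpl11, a ribosomal protein gene, they formed a run of 5 opened peaks over 36.5 kb, whose summed values were 313, 268 and 197 against 1334, 1395 and 1269. All 4 other Id3 peaks rose by limma.

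Other opened peaks of the progenitor list lay far from their genes or in their bodies. The one assigned to Kit, the stem cell factor receptor, was 196 kb upstream and held 27.6, 47.9 and 35.2 against 141, 150 and 155, a ratio of 4.03. In an exon of Myb, a factor of blood cell progenitors, values were 19.6, 6.72 and 14.7 against 74.3, 50.5 and 84.6. In an LTR40b element inside Il6st, which encodes the shared receptor chain gp130, they were 13.4, 16.0 and 18.6 against 109, 40.9 and 61.7. The Rroid-deficient libraries spread widely at Myb and Il6st. Of the other peaks of these genes, limma called 8 of 9 higher at Kit, 6 of 8 higher and 1 lower at Myb, 6 of 11 higher at Il6st, 10 of 27 higher at Foxo1 and 6 of 6 higher at Cxcr5, with none lower except the one at Myb, beside 13.8% higher and 12.1% lower over all peaks.

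Itgb3, which encodes the integrin beta 3 chain, had 5 opened peaks within 46.3 kb in and behind the gene, more than any single gene outside the chromosome 5 block. The highest, in an intron, held 500, 344 and 226 in wildtype and 1305, 1638 and 1534 in Rroid-deficient libraries, and a 3′ UTR peak held 174, 110 and 96.7 against 503, 553 and 517. Wildtype library 3 was the lowest and library 1 the highest wildtype library in both. The ratios of the 5 peaks were 4.14 to 4.87, and limma called 6 of the other 9 Itgb3 peaks higher. Tnfrsf9, the gene of the costimulatory receptor 4-1BB, had an intron peak in a SINE with 74.8, 60.5 and 56.7 against 247, 279 and 276.

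Among transcription factor and receptor genes, an intron peak of Irf4, a factor of activated lymphocytes, held 138, 85.7 and 83.0 against 444, 440 and 400. A Runx2 intron peak held 93.5, 90.7 and 48.8 against 374, 353 and 261. At Ctla4, an inhibitory receptor of T cells, an intron peak held 16.9, 20.2 and 15.6 against 145, 124 and 137, a ratio of 7.68. Limma called 7 of the other 11 Ctla4 peaks and 7 of the other 11 Irf4 peaks higher and 0 lower at either gene. At Runx2, 7 of the other 19 rose and 3 fell. The peak 31.6 kb upstream of Ncr1, the gene of the sorting marker NKp46, held 12.5, 29.4 and 21.5 against 105, 76.2 and 152, while 1 of the other 8 Ncr1 peaks rose and 1 fell. Near Il17a, a cytokine gene of ILC3 and T cells, values of 90.8, 29.4 and 51.8 stood against 403, 340 and 245, and near Pim1, a kinase gene of cytokine signalling, 188, 168 and 84.0 against 511, 683 and 634. Wildtype libraries spread widely at both.

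**Figure D4:**
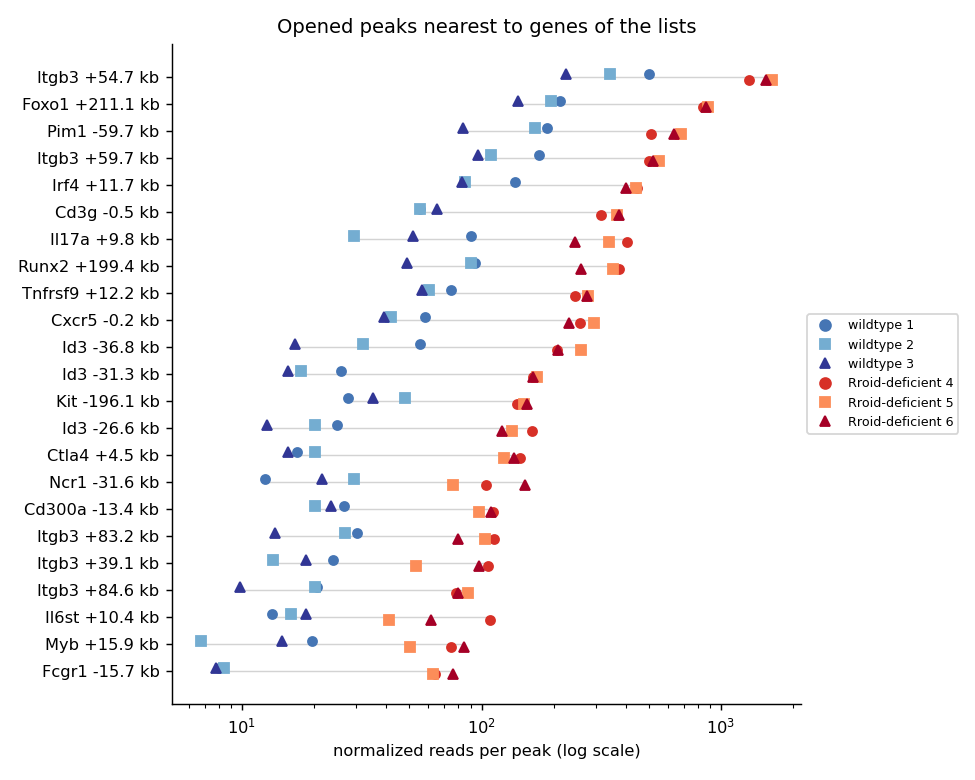
Normalized reads per peak (log scale) at the 23 opened peaks nearest to genes of the lists, labelled by gene and distance to its start, with 1 marker per library (blue wildtype, red Rroid-deficient). The groups do not overlap at any peak, which the rule required; values run from 6.72 at Myb in wildtype library 2 to 1638 at Itgb3 in Rroid-deficient library 5.

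Opened peaks lay close to each other more often than other peaks lay close to an opened one. Another opened peak lay within 50 kb of 106 of the 336, 31.5%, while 2.52% of the other peaks had an opened peak that near. Outside the chromosome 5 block the share was 26.0%. With gaps of at most 50 kb the opened peaks formed 265 runs, of which 230 were single peaks, 23 were pairs and 12 held 3 or more. The 12 runs held 60 peaks. Besides the 2 in the Speer block (16 and 9 peaks), Itgb3 and the Rpl11 and Id3 run, they were a run of 4 between Serpine2 and Fam124b and runs of 3 at Gpr25, Nsg2, Plcd3, Ift80, 4933440M02Rik, Cntn5 and Ackr2 with 1700048O20Rik.

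In the run between Serpine2 and Fam124b, 21.9 kb of chromosome 1 from 80011835, the 4 summed peaks held 255, 233 and 215 in wildtype and 1617, 1548 and 1384 in Rroid-deficient libraries, with no other peak between them. The 3 peaks at Ift80, an intraflagellar transport gene, lay within 9.03 kb and summed to 113, 81.5 and 125 against 666, 688 and 684. At Nsg2, a gene of neuronal vesicle traffic, the 3 summed to 121, 112 and 95.7 against 662, 605 and 545. The 3 near Cntn5, more than 600 kb from the gene, summed to 75.7, 88.2 and 83.0 against 542, 564 and 502. In these 4 runs the libraries of a genotype lay close together. At Gpr25 wildtype library 2 summed to 188 against 85.5 and 59.6 in the others, and the ratio of 1 of its peaks moved from 4.53 to 9.71 without that library.

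Peaks that the rule did not take also rose more often the nearer they lay to an opened peak. They were measured in the same libraries, so this describes the same contrast and not an independent one. Within 10 kb, limma called 169 of 304 other peaks higher, 55.6%, and 9 lower. From 10 to 20 kb 42.3% were higher, from 20 to 50 kb 28.3%, from 50 to 100 kb 24.1%, from 100 to 200 kb 17.4% and from 200 to 500 kb 15.1%. Beyond 500 kb 11.8% were higher and 13.0% lower, beside 13.8% and 12.1% over all peaks. Within 50 kb in all, 484 of 1295 rose, 37.4%, and 57 fell, 4.4%; with edgeR on the recovered reads the counts were 486 and 57. The median log2 fold change of these 1295 was 0.29, against -0.01 over all peaks.

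**Figure D5:**
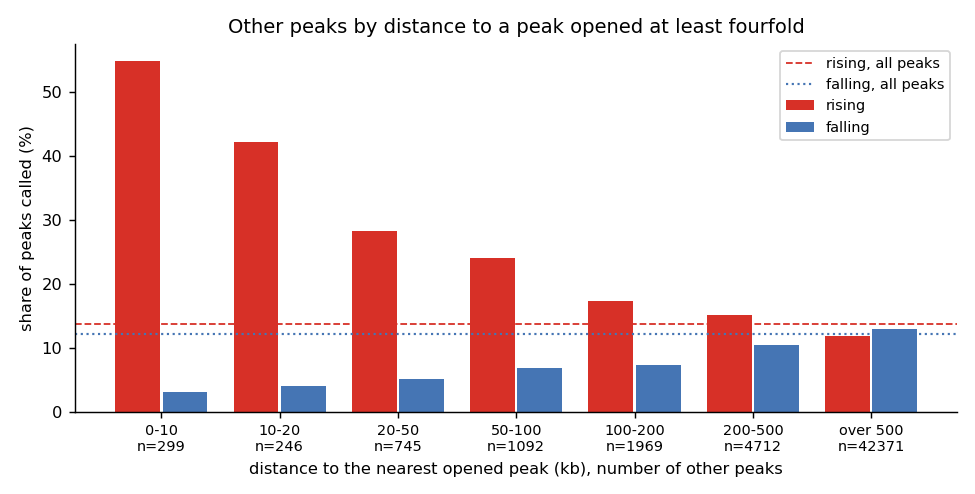
Share (%) of other peaks called higher (red) or lower (blue) by limma in bins of distance to the nearest opened peak, without the chromosome 5 block; the lines give the shares over all 51775 peaks, 13.8% and 12.1%. The share of rising peaks falls from 54.8% within 10 kb to 11.8% beyond 500 kb, and the share of falling peaks climbs from 3.01% to 13.0%.

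Other peaks of genes with an opened peak rose more often than peaks in general. At 248 of the 277 genes there were 1287 further peaks with the same nearest gene, of which limma called 532 higher, 41.3%, and 65 lower, 5.05%, against 13.8% and 12.1% over all peaks. At Hvcn1 all 6 others rose, found after their values were seen. Where a gene had a promoter peak that was not itself opened 4 times, as 66 genes did, the promoter peak with the highest mean rose at 23, 34.8%, fell at 1, Rhoc, and passed in neither direction at 42. Over all 6486 promoter peaks 9.94% rose and 8.80% fell. Without Rroid-deficient libraries 4 and 6, 16 rose, in a fit whose spread came from wildtype alone, with library 5 assumed to vary as they do.

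Among these promoters, that of Nsg2 held 427, 455 and 374 in wildtype and 1415, 1620 and 1382 in Rroid-deficient libraries (log2 fold change 1.81 ± 0.11 SE, limma adjusted p = 1.3e-08). That of Ctla4 held 62.3, 42 and 52.7 against 211, 158 and 216 (1.88 ± 0.22, limma adjusted p = 1e-05). At both the lowest Rroid-deficient value was above 2 times the highest wildtype value. The promoter of Vipr1, a receptor gene for a vasoactive peptide, rose from 1101 ± 102 to 2482 ± 255 (SD, n = 3 each; 1.17 ± 0.10 on the log2 scale, limma adjusted p = 3.3e-07). That of St6gal1, a sialyltransferase gene, rose by 1.57 ± 0.18 (limma adjusted p = 7.1e-06). The Rhoc promoter, of a small GTPase gene, went down from 1291, 1113 and 1123 to 834, 917 and 999 (limma adjusted p = 0.019). At Slc19a2 and Tnfrsf9 the promoters, with log2 fold changes of -0.12 and 0.25, passed in neither direction (limma adjusted p = 0.22 and 0.089), although each gene had an opened peak.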

How the data were processed

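ATAC-seq was measured in 6 libraries of sorted spleen NK cells, 3 wildtype and 3 Rroid deficient. The build was mm9 and the tools HOMER, DiffBind, MACS2 2.1.0, BWA, Trimmomatic 0.32, bcl2fastq 2.16.0 and R 3.1.1, per the submitters' processing notes. What each tool did, how duplicate, multiply aligned and mitochondrial reads were treated and any shift to the cut site are not given in the sources used here. In 1 table the authors deposited a normalized signal value per consensus peak and library, and HOMER's annotation with a signed distance score in bp to the nearest start site. It held 51775 peaks and 0 rows of the mitochondrial chromosome. Within a tolerance of 0.01, 100.0% of the deposited signal values were whole reads times 1 factor per library; read numbers given are these recovered reads. Counting intervals cover counting error only.

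The members and gene lists were chosen with earlier results of these data known. The test was limma 3.58.1 (R 4.3.3) on log2(value + 1), a pseudocount of 1, with a trend by intensity, fitted over all peaks with genotype only; a call is a Benjamini-Hochberg adjusted p under 0.05. On this scale the change of a low peak is understated. The design had named edgeR for raw counts; as the unit was a normalized signal, edgeR 4.0.16 on the recovered reads was an alternative and called 7080 peaks higher and 6246 lower. DESeq2 1.42.0 was another. The limma step was tested on simulated data. Named peaks were the 10 with the highest Rroid-deficient mean, the 10 with the largest ratio at or above the median of that mean, promoter peaks, peaks of list genes, runs of 3 or more, the 5 highest in repeats and the 3 on each side of the limit, with the leading promoter peak and calls of their genes. Other named peaks, among them the RLTR4 copies, the Speer peaks outside the block and promoters of Vipr1, St6gal1 and Rhoc, were chosen after their values were seen. Rroid-deficient columns end in 4, 5 and 6 and were assigned to the genotype only.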

Additional observations from a re-analysis of the deposited data

How the results depend on the processing

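The 336 opened peaks became 747 at a ratio of 3, 174 at a ratio of 5 and 213 among peaks whose mean value was above the lowest quartile. The share in repeats was 23.7% at a ratio of 3. The share with another opened peak within 50 kb was 36.8% at a ratio of 3 and 26.0% without the chromosome 5 block, and 26.8% had one within 20 kb. Rising neighbours numbered 273 within 20 kb and 747 within 100 kb, and falling ones 19 and 132. Without Rroid-deficient libraries 4 and 6, an alternative chosen after seeing the data, 353 peaks of the same genes rose and 33 fell, 18 fell within 50 kb and 0 leading promoters fell; the Rroid-deficient arm then holds only library 5, assumed to vary like wildtype. At an adjusted p under 0.01, 32 fell within 50 kb, 38 at the same genes and 0 leading promoters. Leaving out 1 library at a time gave 306 to 475 opened peaks, 2.61% to 3.58% promoter peaks, 24.2% to 30.6% in repeats and 29.4% to 34.1% with another within 50 kb. It gave 404 to 487 rising and 37 to 79 falling neighbours within 50 kb, 443 to 537 rising and 42 to 73 falling peaks of the same genes, and 19 to 24 rising and 0 to 3 falling leading promoters; the fewest falling neighbours came without Rroid-deficient library 6. The other settings (pseudocounts of 0.5 and 5, size factors, total reads, loess, edgeR, DESeq2, medians, the filter of a value of 10 in 3 libraries) left every count within 1.5 times.

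Of 98 named opened peaks under 8 settings (784 values), 677 ratios moved by less than the replicate spread, 107 moved further and 0 reversed. The rule put every Rroid-deficient value above every wildtype value, so leaving out a library could not reverse a ratio. The lowest ratio was 2.93, and 26 peaks fell below 4 in some setting. The ratio of a block peak near 4930572O03Rik was 8.84 without wildtype library 3. Few wildtype reads limit the ratios of the faintest peaks. No paired analysis was possible because the Rroid-deficient columns carry numbers shared with no wildtype column; the replicate block was not run.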
